A study of Mus musculus with 6 samples.

Results

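The genes described here code for the enzymes that set the flow of sugar through fructose bisphosphate, and their RNA was compared between fetal and adult mouse mammary cells. They are Fbp1 and Fbp2, which code for fructose bisphosphatases, Pfkl, Pfkm and Pfkp, which code for the subunits of phosphofructokinase 1, and Pfkfb1, Pfkfb2, Pfkfb3 and Pfkfb4, which code for the enzymes that make and break the signal molecule of this step. The 9 genes were named beforehand as the members of this enzymatic step and were selected on measured values, because the fetal and adult levels of several of them on these same arrays were already known. Their differences between the populations are therefore given as a description, with no test, and nothing is supported with them. They were found through the RefSeq accessions of the array probes and are represented by 12 probes, among 27235 probes that matched 20660 genes in all. RNA of 3 samples of E18.5 fetal mammary cells and 3 samples of adult basal mammary cells was hybridized to one-color Agilent mouse expression arrays, with 1 array for each sample and the samples labelled as biological replicates. All 6 samples came from C57Bl6J mice labelled female, and the labels name no transgene or treatment. The fetal sort took EpCAM++CD49f+ cells without CD31, CD45 and Ter119 from briefly digested rudiments, and the adult sort took EpCAM+CD49f+ cells without CD31, CD45, Ter119 and BP-1 from glands of mice aged 8 to 12 wk that were digested overnight. Age, sort gate and digestion differed together, so their parts in any difference cannot be told apart.

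Phosphofructokinase 1 adds a phosphate to fructose 6-phosphate and so commits sugar to glycolysis, and fructose bisphosphatase removes that phosphate again on the way back to glucose. The enzymes of the Pfkfb family carry a kinase and a phosphatase in the same chain, and their product, a second fructose bisphosphate, activates phosphofructokinase 1 and inhibits fructose bisphosphatase. In the mammary gland, glucose and its phosphates supply energy, the pentose phosphate pathway, glycoprotein synthesis and, during lactation, lactose.

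Fbp1 was high in the fetal cells and low in the adult basal cells, and Pfkp and Pfkfb3 were low in the fetal cells and high in the adult basal cells. These were the largest differences among the 9 genes by their brightest probes, while the mean of both Pfkp probes, -2.15, was smaller in size than the difference of 2.42 for Pfkfb1. Pfkl was also higher in the adult basal cells, and Fbp2, Pfkm, Pfkfb1, Pfkfb2 and Pfkfb4 were higher in the fetal cells. By the probe that was brightest on average, here called the main probe, 6 genes were thus higher in the fetal cells and 3 in the adult basal cells. Values are log2 of the background-subtracted spot signal after quantile normalization over the 6 arrays, so that a difference of 1 is a 2-fold change. A level can be set against the same probe on another array and not against another probe, because probes differ in how brightly they report a transcript.

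**Figure D1:**
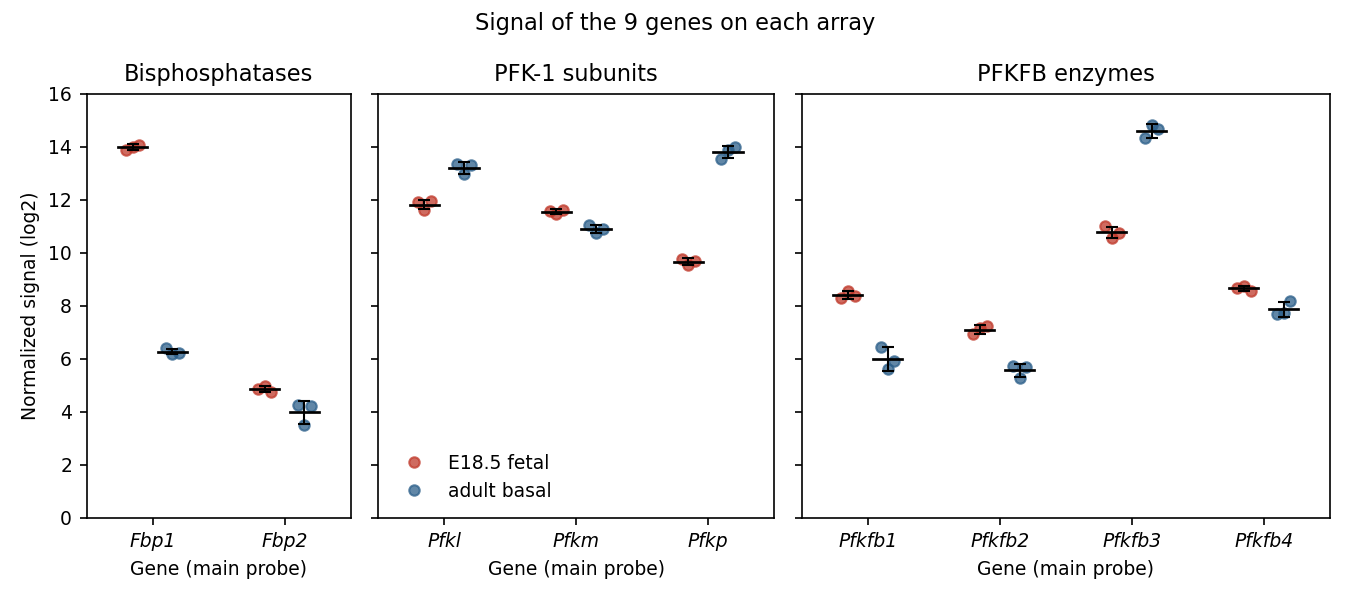
Log2 normalized signal of the main probe of each of the 9 genes on the 3 fetal and 3 adult basal arrays, with points for single arrays and a line and bar for the mean and SD. Fbp1 stands near 14 in the fetal cells and near 6 in the adult basal cells, while Pfkp and Pfkfb3 stand lower on all 3 fetal arrays than on any of the 3 adult basal arrays.

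Of the 12 probes, 10 passed the filter on low signals and were fitted, among them the main probes of 8 genes. A probe was called changed where its Holm-adjusted p in limma was at most 0.05 and its fold change at least 2. Of the 20448 probes fitted, 2270 (11.1%) were called, and with 1 main probe per gene 1765 of 15725 (11.2%) were called. On that basis 947 genes (6.02%) were called higher in the fetal cells and 818 (5.2%) higher in the adult basal cells. Set beside this background only to place them, and not as a test, 3 of the 9 genes lay past these limits, namely Fbp1 towards the fetal cells and Pfkp and Pfkfb3 towards the adult basal cells. That number was 5 with scaling to the 75th percentile, 6 with Benjamini-Hochberg adjustment and 3 or 4 under the other 16 alternatives. The fetal and adult arrays did not overlap for 8 of the 8 main probes past the filter, which was also so for 10757 (68.4%) of the 15725 main probes past it in all. Nothing is read from these counts for the 9 genes, since the same contrast was used to choose them. In pooled cells, a lower signal from fewer cells of a type and one from less RNA per cell cannot be told apart.

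Fbp1 codes for the fructose bisphosphatase best known from liver and kidney, where it serves the synthesis of glucose. Its 1 probe (A_51_P474701, NM_019395) gave 13.86, 13.99 and 14.07 for fetal replicates 1 to 3 and 6.39, 6.19 and 6.22 for adult basal replicates 1 to 3. All 3 fetal arrays were far above the 3 adult arrays, and the spread within either population was small. The means were 13.97 ± 0.11 in the fetal cells and 6.26 ± 0.11 in the adult basal cells (SD, n = 3 each). The difference was 7.71 on the log2 scale (SE 0.11), or 209-fold, and 12 of the 20448 probes fitted lay further towards the fetal cells. Before normalization, the processed signal ranged from 15520 to 19244 on the fetal arrays and from 59.9 to 83.1 on the adult arrays. The scanner software marked this probe as well above background on each of the 6 arrays, so the adult value is a measured low level.

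Fbp2, the isozyme best known from muscle, gave faint signals. Its probe (A_51_P499020, NM_007994) read 4.87, 4.99 and 4.75 for fetal replicates 1 to 3 and 4.27, 3.49 and 4.20 for adult basal replicates 1 to 3. The fetal arrays were the higher ones and the populations did not overlap, but the probe was well above background on only 1 of the 3 adult arrays and did not pass the filter. The means were 4.87 ± 0.12 and 3.98 ± 0.43 (SD, n = 3 each), a difference of 0.88 that was not fitted. Fbp1 and Fbp2 lie side by side in the mouse gene table and have exchanged older names, and they were told apart by accession.

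Of the subunits of phosphofructokinase 1, named after liver, muscle and platelets, Pfkp differed most between the populations. Its main probe (A_51_P378856, NM_019703) gave 9.77, 9.53 and 9.68 for fetal replicates 1 to 3 and 13.54, 13.88 and 13.98 for adult basal replicates 1 to 3. The adult arrays were higher without overlap, with means of 9.66 ± 0.12 in the fetal cells and 13.80 ± 0.23 in the adult basal cells (SD, n = 3 each). The difference was -4.14 (SE 0.14), or 17.6-fold higher in the adult cells. A second probe with the same accession, A_52_P572045, did not show this. It gave 8.99, 9.01 and 9.04 for fetal replicates 1 to 3 and 9.27, 8.93 and 9.33 for adult basal replicates 1 to 3. The populations overlapped there, with a difference of -0.16 (SE 0.13), and the mean of both probes gave -2.15. Which of the probes reports the transcript better was not tested.

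Pfkl, the liver-type subunit, was higher in the adult basal cells. Its probe (A_51_P310896, NM_008826) gave 11.89, 11.62 and 11.93 for fetal replicates 1 to 3 and 13.35, 12.95 and 13.30 for adult basal replicates 1 to 3, without overlap. The means were 11.81 ± 0.17 and 13.20 ± 0.22 (SD, n = 3 each), and the difference was -1.39 (SE 0.15), or 2.62-fold. Pfkm, the muscle-type subunit, differed the other way. Its probe (A_51_P117995, NM_021514) gave 11.58, 11.44 and 11.61 for fetal replicates 1 to 3 and 11.03, 10.74 and 10.88 for adult basal replicates 1 to 3. The fetal arrays were a little higher without overlap, with means of 11.55 ± 0.09 and 10.88 ± 0.14 (SD, n = 3 each) and a difference of 0.66 (SE 0.12), or 1.58-fold. This probe is printed in 10 spots on each array. The muscle-type and platelet-type subunits thus lay on opposite sides, by their main probes.

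Among the Pfkfb genes, Pfkfb3 codes for the form with by far the stronger kinase side, which raises the activator of phosphofructokinase 1 and is known to be induced by low oxygen. Its main probe (A_55_P2116165, NM_001177753) gave 10.99, 10.54 and 10.75 for fetal replicates 1 to 3 and 14.30, 14.83 and 14.64 for adult basal replicates 1 to 3. The adult arrays were far higher, with means of 10.76 ± 0.23 in the fetal cells and 14.59 ± 0.27 in the adult basal cells (SD, n = 3 each). The difference was -3.83 (SE 0.17), or 14.3-fold. The second probe, A_52_P362917, carries the accession NM_133232 and gave 7.46, 6.80 and 7.56 for fetal replicates 1 to 3 and 11.20, 9.94 and 11.57 for adult basal replicates 1 to 3. It lay the same way without overlap, by -3.63 (SE 0.42) or 12.4-fold, with a wider spread between arrays.

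Pfkfb1, which codes for the form of liver and skeletal muscle, was higher in the fetal cells. Its probe (A_55_P2002893, NM_008824) gave 8.28, 8.56 and 8.38 for fetal replicates 1 to 3 and 6.46, 5.60 and 5.91 for adult basal replicates 1 to 3. The populations did not overlap, and the adult arrays were spread more widely than the fetal ones. The means were 8.41 ± 0.14 and 5.99 ± 0.44 (SD, n = 3 each), and the difference was 2.42 (SE 0.22), or 5.35-fold. Pfkfb2, the heart form, was also higher in the fetal cells. Its probe (A_51_P184849, NM_001162415) gave 6.92, 7.16 and 7.22 for fetal replicates 1 to 3 and 5.71, 5.28 and 5.68 for adult basal replicates 1 to 3. The fetal arrays were higher without overlap, with means of 7.10 ± 0.15 and 5.56 ± 0.24 (SD, n = 3 each) and a difference of 1.54 (SE 0.15), or 2.91-fold. The adult mean lay below the limit of the low-signal filter, 5.95, so this probe passed the filter only by its fetal arrays.

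Pfkfb4, the testis form, differed least of the 4 Pfkfb genes. Its main probe (A_55_P1992959, NM_173019) gave 8.66, 8.75 and 8.56 for fetal replicates 1 to 3 and 7.70, 7.72 and 8.19 for adult basal replicates 1 to 3. Adult replicate 3 stood nearest to the fetal arrays and still below them. The means were 8.66 ± 0.10 and 7.87 ± 0.28 (SD, n = 3 each), and the difference was 0.79 (SE 0.15), or 1.73-fold. A second probe, A_55_P2119332, failed the background limit on each of the 6 arrays. Within the family, Pfkfb3 was therefore the 1 gene higher in the adult basal cells, and Pfkfb1, Pfkfb2 and Pfkfb4 were higher in the fetal cells. The median difference over all main probes fitted was -0.04, their median absolute difference was 0.53, and the median SD between replicates was 0.16.

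**Figure D2:**
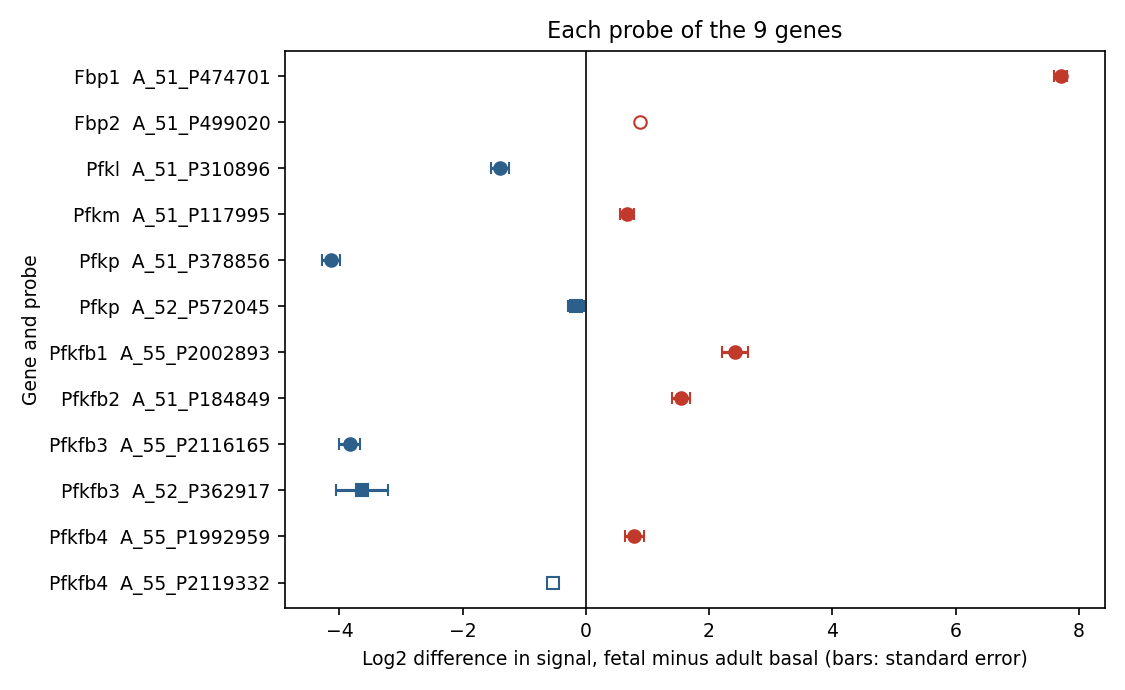
Difference in log2 normalized signal, fetal minus adult basal, for each of the 12 probes, with circles for main probes and squares for second probes. Red marks a higher level in fetal cells, blue a higher level in adult basal cells, and open symbols mark probes that did not pass the low-signal filter and were not fitted. The second Pfkp probe lies near 0 at -0.16 while its main probe lies at -4.14, and both Pfkfb3 probes lie below -3.

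The arrays were on 2 slides, of which slide 1 held fetal replicate 1 and adult replicates 1 and 3, and slide 2 the other arrays. Within slide 1 and slide 2 the difference was 7.55 and 7.84 for Fbp1, -3.99 and -4.27 for the main probe of Pfkp and -3.49 and -4.19 for the main probe of Pfkfb3. The direction was thus the same on both slides for these genes. For the second Pfkp probe the values were -0.31 and 0.10, which differ in sign. Under 18 other ways of processing the arrays, Fbp1 differed by between 6.83 and 7.93, with the lowest value under the normexp background correction, which compresses faint signals. Ways that change only the filter, the probes kept, the adjustment, the variance estimate or a block for the replicate number cannot alter a difference. The difference for Pfkfb3 ranged from -3.98 to -3.72 and that for Pfkl from -1.51 to -1.29. Pfkfb1 ranged from 1.59 to 2.66, with 1.59 under the normexp correction.

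**Figure D3:**
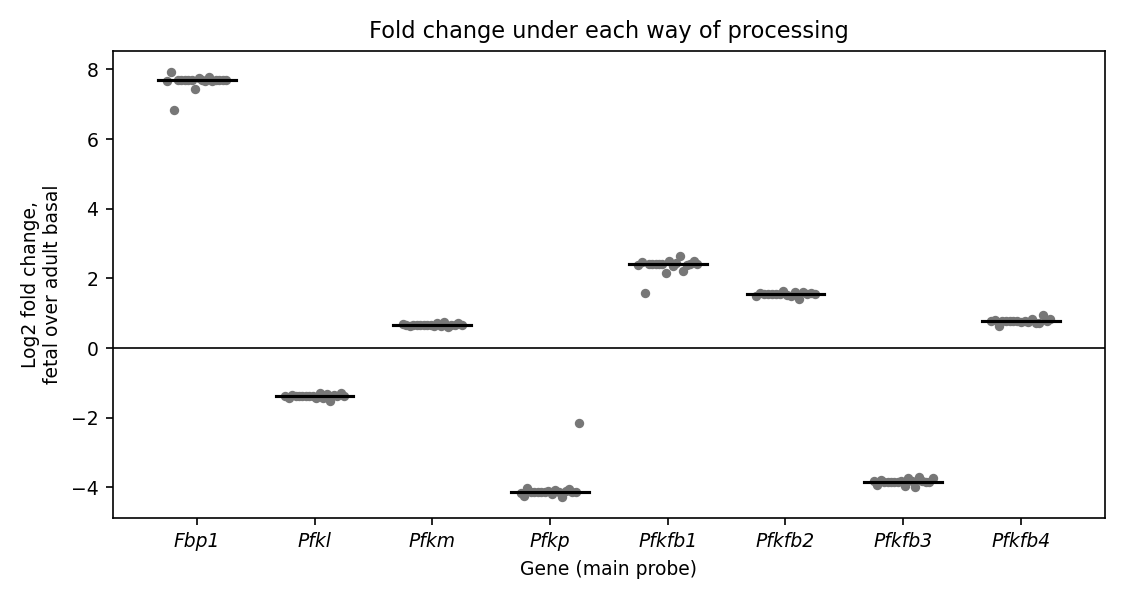
Difference in log2 normalized signal, fetal minus adult basal, for the main probes of the 8 genes that passed the low-signal filter, with a black line for the value as reported and grey dots for the other ways of processing. Fbp1 stays between 6.83 and 7.93 and Pfkfb3 between -3.98 and -3.72, and the widest move is that of Pfkp to -2.15, where the mean of its 2 probes was used.

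The promoters of the genes with the largest differences are printed to show the sequence around their starts, with matches to a pair of short motifs. ACGTG is the core of the element bound by the hypoxia-inducible factors, for which Pfkfb3 is a known target, and CACCTG is the E-box bound by the Snail family and Zeb1, of which Snail is known to repress Fbp1. Each window runs from 250 bases before to 50 bases after a start site in RefSeq (assembly GRCm38.p6), is written 5′ to 3′ on the strand of the gene and has matches in capitals, on either strand, where the reverse strand reads CACGT or CAGGTG. The genes have 18 such windows, of which 7 hold ACGTG and 6 hold CACCTG, while ACGTG is in 19.6% and CACCTG in 20.2% of all 32851 windows of the RefSeq table. A match describes letters and is not a bound site, and nothing about a factor follows from its presence or absence.
Fbp1, chr13:62888233-62888532, minus strand: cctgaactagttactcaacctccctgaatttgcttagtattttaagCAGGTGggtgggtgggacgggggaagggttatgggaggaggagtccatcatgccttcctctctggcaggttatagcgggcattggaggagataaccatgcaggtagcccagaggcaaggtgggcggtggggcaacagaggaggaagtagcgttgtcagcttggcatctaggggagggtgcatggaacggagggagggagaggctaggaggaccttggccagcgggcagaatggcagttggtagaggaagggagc
Pfkp, chr13:6648722-6649021, minus strand: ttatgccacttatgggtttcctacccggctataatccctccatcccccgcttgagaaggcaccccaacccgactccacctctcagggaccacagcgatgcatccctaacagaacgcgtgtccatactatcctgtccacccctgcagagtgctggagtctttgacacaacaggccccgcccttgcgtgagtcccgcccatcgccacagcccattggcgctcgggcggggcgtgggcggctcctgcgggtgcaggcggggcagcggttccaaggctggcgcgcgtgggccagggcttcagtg
Pfkfb3, chr2:11502041-11502340, minus strand: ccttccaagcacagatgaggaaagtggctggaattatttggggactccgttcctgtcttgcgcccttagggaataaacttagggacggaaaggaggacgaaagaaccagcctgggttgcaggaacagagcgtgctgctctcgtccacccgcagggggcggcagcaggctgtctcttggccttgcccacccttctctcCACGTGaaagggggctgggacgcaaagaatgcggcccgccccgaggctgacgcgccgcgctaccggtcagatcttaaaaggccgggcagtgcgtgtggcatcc
Pfkfb3, chr2:11553880-11554179, minus strand: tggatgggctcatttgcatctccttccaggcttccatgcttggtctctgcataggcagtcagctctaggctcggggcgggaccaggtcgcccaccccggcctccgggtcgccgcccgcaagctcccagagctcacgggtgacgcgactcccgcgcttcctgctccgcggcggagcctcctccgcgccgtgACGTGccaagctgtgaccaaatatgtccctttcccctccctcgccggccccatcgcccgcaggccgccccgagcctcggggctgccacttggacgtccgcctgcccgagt
The Fbp1 window holds 1 match to CACCTG and 0 to ACGTG, and the Pfkp window holds 0 of either. The first Pfkfb3 window holds CACGTG, which counts as 2 overlapping matches to ACGTG, 1 on each strand, and the second window holds 1 match.

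The genes around this enzymatic step were taken in 5 lists of 50 genes together, of which 45 had a main probe past the filter. Of these, 3 were called higher in the fetal cells and 4 higher in the adult basal cells, beside 6.02% and 5.2% of all genes, and 38 were not called. The median difference over the 45 genes was -0.46, beside -0.04 over all main probes. The lists were chosen with earlier results of these arrays known, and their counts are descriptions.

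Pcx, which codes for pyruvate carboxylase at the entry to gluconeogenesis, rose in the fetal cells. Its level was 10.24 ± 0.11 in the fetal cells and 7.01 ± 0.16 in the adult basal cells (SD, n = 3 each), a difference of 3.22 (SE 0.12, limma, Holm-adjusted p = 3.8e-04). It was the 1 called gene of 5 tested in the list of gluconeogenesis. The other 4 lay towards the adult basal cells and were not called, among them G6pc3, a glucose-6-phosphatase of many tissues, at -0.62 and Pck2, the mitochondrial enzyme that makes phosphoenolpyruvate, at -0.59. G6pc2 and Pck1 did not pass the filter, and the list's median was -0.59.

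In the glycolytic steps next to the node, 1 gene of 8 tested was called in each direction. Aldoc, the brain-type aldolase, which splits fructose bisphosphate, rose in the fetal cells, with 16.40 ± 0.12 against 13.97 ± 0.04 (SD, n = 3 each) and a difference of 2.43 (SE 0.10, limma, Holm-adjusted p = 9.5e-04). Gpi1, whose product turns glucose 6-phosphate into fructose 6-phosphate, was higher in the adult basal cells, with 15.76 ± 0.03 against 17.47 ± 0.08 and a difference of -1.71 (SE 0.10, limma, Holm-adjusted p = 0.0064). Of the other Gpi1 probes, 1 was called as well at -1.73 and 1 was not called at -1.23. Aldoa, the muscle-type and most general aldolase, gave -1.20 and missed the threshold (limma, Holm-adjusted p = 0.051). The hexokinase genes Hk2, at -1.89, and Hk1, at -0.65, were not called (Holm-adjusted p in limma 0.48 for Hk2 and 1 for Hk1). The list's median was -0.76, and Hkdc1 was not tested. Aldoc and Aldoa thus lay on opposite sides, and Aldoa was called under 5 of the 18 alternatives.

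No gene of the list for the entry of fructose was called among 5 tested. Khk, which codes for the fructokinase, gave -0.17, and 3 of the 5 lay towards the fetal cells and 2 towards the adult basal cells, with a median of 0.86. Among the 11 genes of the pentose phosphate pathway and of the hexosamine route, which both connect to fructose 6-phosphate, 0 main probes were called, with 4 towards the fetal cells, 7 towards the adult basal cells and a median of -0.17. Gfpt1, the first enzyme of the hexosamine route, gave -1.80 and missed the threshold (limma, Holm-adjusted p = 0.053), but was called under 6 of the 18 alternatives. Its second probe, A_55_P2126775, was called at -2.01 (limma, Holm-adjusted p = 0.014).

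Of 16 regulators tested, 1 was called higher in the fetal cells and 3 higher in the adult basal cells, with a median of -0.63, and Hnf4a was not tested. Prkaa2, a catalytic subunit of the energy sensor AMPK, which phosphorylates enzymes of the Pfkfb family, rose in the fetal cells by 1.75 (SE 0.10, limma, Holm-adjusted p = 0.0052). Epas1, which codes for a hypoxia-inducible factor, was higher in the adult basal cells by its main probe, at -2.81 (SE 0.16, limma, Holm-adjusted p = 0.0085). With slide as a block that difference was -2.83 and its call was lost (limma, Holm-adjusted p = 0.053). A second Epas1 probe was called at -2.40, and the other, A_55_P2077448, gave -0.04 and was not called. Hif1a, of the same family, gave 0.46 and was not called.

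Snai2 and Zeb1, which code for repressors of the epithelial programme, were called higher in the adult basal cells. Snai2 gave 10.69 ± 0.04 in the fetal cells and 13.19 ± 0.25 in the adult basal cells (SD, n = 3 each), a difference of -2.50 (SE 0.14, limma, Holm-adjusted p = 0.0064). Zeb1 gave -2.55 (SE 0.13, limma, Holm-adjusted p = 0.0032), with the fetal signal well above background on only 1 of 3 arrays. Snai1, which codes for Snail and is named after its value was seen, gave -1.93 (SE 0.34) and was not called. Tigar, which codes for a phosphatase that lowers the activator of phosphofructokinase 1, gave -0.95 and was not called.

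Ppargc1a, a coactivator known for the induction of gluconeogenesis in liver, gave 10.24 ± 0.16 in the fetal cells and 5.24 ± 0.90 in the adult basal cells (SD, n = 3 each). The adult arrays differed widely among themselves, and the difference of 5.0 (SE 0.40) missed the threshold (limma, Holm-adjusted p = 0.074). Under the normexp background correction the difference was smaller, at 3.59, and was called (limma, Holm-adjusted p = 2.8e-04). A second probe, A_55_P2011702, was called higher in the fetal cells by at least 8.82-fold (limma, Holm-adjusted p = 1.3e-05), a bound set by the lowest signal that cleared the background limit, which this probe failed on each adult array.

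The calls of Pcx and Aldoc stood with each array left out. Those of Gpi1, Prkaa2, Epas1, Snai2 and Zeb1 were lost without any 1 of the 3 fetal arrays, with Holm-adjusted p in limma from 0.054 to 0.15. Without adult replicate 3, those of Gpi1, Prkaa2, Epas1 and Snai2 were lost, from 0.06 to 0.072, and that of Prkaa2 also without adult replicate 1, at 0.064. The main probe of Ppargc1a was called without adult replicate 1 or adult replicate 2 (limma, Holm-adjusted p = 0.035 and 0.0077).

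**Figure D4:**
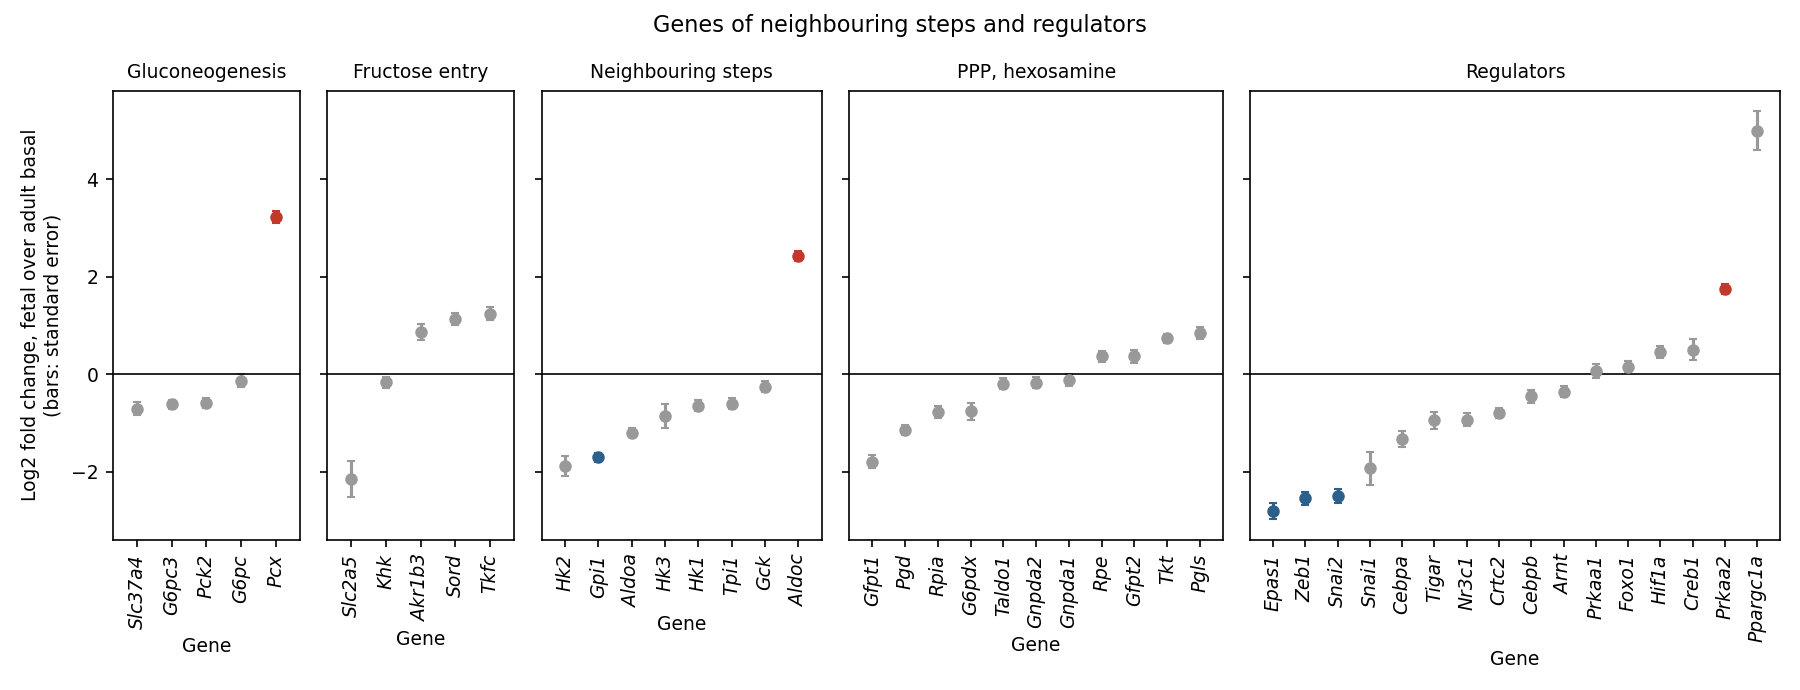
Difference in log2 normalized signal, fetal minus adult basal, for the main probes of the 45 genes tested in the 5 lists around the enzymatic step, with coloured symbols for called genes, grey ones for genes not called, and PPP for the pentose phosphate pathway. Pcx, Aldoc and Prkaa2 are called on the fetal side, and Gpi1, Epas1, Snai2 and Zeb1 on the adult basal side.

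The probes most like Fbp1 over the 6 arrays were looked for among 21203 probes of other genes that cleared the background limit on each of the 6 arrays, by the distance between log2 values centred on each probe's mean. The nearest was Csn1s1, a milk casein, at a distance of 0.27. It was followed by Bche, a cholinesterase, at 0.45, Elf5, a transcription factor of luminal progenitors, at 0.59, Bex4 at 0.73 and Uhrf1, a cofactor of maintenance DNA methylation, at 0.88. All 5 were high on the 3 fetal arrays and low on the 3 adult arrays. With 6 arrays in 2 populations, the measure mostly reflects the size of that step.

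Markers of the sorted cell types and of cells that could be mixed in were read on the same arrays. Each of the 6 basal mammary markers cleared the background limit on at least 1 array of both populations, and Krt5, Acta2, Myh11 and Oxtr were called higher in the adult basal cells, by -3.90, -4.07, -8.63 and -3.96, 4 of the 6 listed. Krt14, at -1.20, and Trp63, at -0.08, were not called. On the adult arrays Krt14 gave 15.25, 13.39 and 15.46, and only replicate 2 lay within the fetal range of 13.36 to 13.78. The summed normalized signal of the 6, on the linear scale, was 50303 to 61881 on the fetal arrays and 574715 to 643103 on the adult arrays, with Acta2 the brightest. Of the 6 luminal markers, Elf5 at 7.55 and Kit at 4.0 were called higher in the fetal cells, with a summed signal of 137799 to 176564 on the fetal arrays and 108618 to 117028 on the adult arrays and Krt18 the brightest. The other 4 were not called, and Krt8 at 0.44 and Krt18 at 0.58 lay towards the fetal cells while Krt19 at -1.22 and Prlr at -0.35 lay towards the adult basal cells. Markers of both sets were thus detected in both populations, and the basal sum was higher on the 3 adult arrays than on any fetal array.

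Of the 6 hepatocyte markers, which were read because Fbp1 is a gene of the liver, 0 were called among 3 tested. Their summed signal was 1117 to 1240 on the fetal arrays and 1219 to 1358 on the adult arrays, Tat was the brightest, and Ttr failed the background limit on each of the 6 arrays. Of the skeletal muscle markers, 1 of 2 tested, Acta1, was called higher in the adult basal cells at -4.68, while Myh4 failed the background limit on each of the 6 arrays. That list's summed signal was 881 to 1123 on the fetal arrays and 20762 to 23144 on the adult arrays, with Acta1 the brightest, and the other muscle marker tested, Tnnt3, gave 0.03. Myh1, which was not fitted, lay the other way without overlap and cleared the background limit on 2 fetal arrays and 0 adult arrays. Of 6 fibroblast markers, Dcn was called higher in the adult basal cells at -3.78. Their summed signal was 5429 to 7019 on the fetal arrays and 15538 to 25911 on the adult arrays. Col1a2 was the brightest on the fetal arrays and Dcn, the 1 called, on the adult arrays. The other 5 fibroblast markers gave between -1.05 (Lum) and -0.01 (Col1a1) and were not called, and for 5 of the 6, Col1a1 being the exception, the fetal arrays were all lower than the adult ones. No marker of leukocytes (5 tested), endothelium (4 tested), adipocytes (6 tested) or red cells (2 tested) was called. Some of them were nevertheless lower on each fetal array than on any adult array, namely the endothelial genes Cdh5 at -2.70 (SE 0.62) and Vwf at -1.56 (SE 0.27) and the leukocyte gene Lyz2 at -1.76 (SE 0.54). Cdh5 gave 3.62, 4.49 and 6.36 on the fetal arrays and Lyz2 gave 6.26, 5.61 and 7.95 on the adult arrays. Replicate 3 stood apart in each, so the size of these differences rests partly on it. Adipoq, the fat cell hormone, cleared the background limit on 2 fetal arrays and 0 adult arrays, with overlap. The other 5 adipocyte markers overlapped as well and gave -1.21 for Fabp4, -0.44 for Lpl, -0.23 for Lep, -0.08 for Plin1 and 0.02 for Cidec. Fetal replicate 3 stood apart there, with 8.17 for Adipoq against 5.62 and 3.99 on the other fetal arrays, 10.43 for Fabp4 against 8.43 and 8.67, and a summed signal of the adipocyte list of 2788 against 1292 and 1155, while the adult arrays ranged from 2136 to 2809. Without fetal replicate 3 the difference was 7.66 for Fbp1, -4.15 for Pfkp and -3.83 for Pfkfb3. The endothelial gene Tek, which was not fitted, lay the same way without overlap and was below the background limit on each fetal array. The summed signals of the endothelial list were 10811 to 12616 on the fetal arrays and 11390 to 13902 on the adult arrays, with Kdr the brightest, and those of the leukocyte list were 12386 to 16149 and 13772 to 15568, with Csf1r the brightest. The part of these marker genes, and of the called markers Elf5, Kit, Krt5, Acta2, Myh11, Oxtr, Acta1 and Dcn, in the differences of Fbp1, Pfkp and Pfkfb3 was not tested.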

How the data were processed

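RNA of 3 fetal and 3 adult basal samples was measured on 1 array each, and groups and replicate numbers were taken from the sample labels. The authors deposited spot intensity values from Agilent Feature Extraction 11.0.1.1 (named in the submitters' processing notes), background-subtracted within each array and not normalized between arrays, and a table of log2 values that the authors quantile normalized. The methods and the labels name different labelling kits.

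The values reported here were computed from the processed intensity. Control spots and the 104 to 326 outlier spots of each array were dropped, spots of one probe were averaged as log2, and the 6 arrays were quantile normalized. The deposited files carry no column of gene symbols, so probes were matched by accession to a RefSeq gene table (GRCm38.p6), whose coordinates were used only for its own promoter windows. Of 55681 probes, 27235 (48.9%) matched 20660 genes, and other probes are unnamed here. Probes in the lowest of 3 k-means clusters (100 starts, seed 1) in the fetal and the adult arrays alike were dropped, and 20448 stayed. The contrast was estimated by limma 3.58.1 (lmFit, eBayes) under R 4.3.3, with calls at an adjusted p (Holm) up to 0.05 and a log2 difference of 1 or more in size. Python 3.11.15 with pandas 2.3.3, numpy 2.4.6 and matplotlib 3.10.9 assembled tables and plots. The fit was run on simulated arrays with independent noise, which checks the code and not the part of slides or faint signals in these data. The number of arrays limits the precision, and an exact permutation test of 3 against 3 cannot go below 0.10. On single arrays 76.4% to 83.3% of probes cleared the background limit, and 0 spots were saturated. Beyond the label of biological replicate, nothing states whether samples came from separate animals, so p-values measure the spread between these samples.

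The members and lists were chosen with earlier results of these data known. Named are all members, every called gene of a list, and a fixed set (Hk1, Hk2, Gpi1, Aldoa, G6pc3, Pck2, Pcx, Khk, Tigar, Hif1a, Snai2, Ppargc1a and Gfpt1) whatever their values. Marker genes come from lists of 9 cell types. Other genes of the lists that are named are those not past the filter, Creb1 and Prkaa1, whose direction changed with the processing, and Snai1. They were chosen after their values were seen, as were the single markers given with values. The 18 alternatives were scaling to the 75th percentile, the deposited log2 values, normexp on the median spot intensity (offset 50, planned on the mean intensity), dropping the low-signal filter, replacing it by the background limit on at least 1 array, keeping unmatched probes, Benjamini-Hochberg adjustment, an offset of 16 before log2, eBayes with a variance trend and robust fitting, leaving out each of the 6 arrays, blocks for the replicate number or for the slide, and averaging the probes of a gene.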

Additional observations from a re-analysis of the deposited data

How the results depend on the processing

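Of 1000 comparisons of a result with an alternative, 2 changed sign. Alternatives that change only the filter, the probes kept, the adjustment, the variance estimate or the replicate block cannot alter a gene's difference. Comparisons of a gene's difference under them could therefore not change sign. For genes of the neighbouring lists that passed the filter of the alternative, 28 comparisons lost a call and 27 gained one. These gained calls include those of Aldoa under 5, Gfpt1 under 6 and Ppargc1a under 7 of the alternatives. Zeb1 did not pass the low-signal filter under the normexp correction or with the offset before log2. Its call was therefore absent there too, and these cases are not among the 28. For the genes of the enzymatic step only the difference was compared, so changes in their calls are not in these counts. The number of them past the limits, 3, was 5 with scaling to the 75th percentile and 6 with Benjamini-Hochberg adjustment. It was 3 or 4 under the other alternatives. The number of probes called, 2270, was 1182 without the low-signal filter, 1428 with a filter on probes well above background and 6133 with Benjamini-Hochberg adjustment, and it ranged from 945 to 1981 with 1 array left out. The number of genes called in the neighbouring lists, 7, was 17 with Benjamini-Hochberg adjustment and ranged from 2 to 8 with 1 array left out. Deviations of same-numbered samples from their group means correlated at -0.032, 0.093 and 0.049, and those of differently numbered samples at between -0.13 and 0.12. These values cannot settle whether samples of the same number were paired. With replicate number as a block, 1302 probes and 3 genes of the lists were called. In that fit Gpi1, Prkaa2, Epas1, Snai2 and Zeb1 lost their calls and Ppargc1a gained one. Epas1 also lost its call with slide as a block (Holm-adjusted p in limma 0.053), and Epas1 and Snai2 without the low-signal filter (0.079 and 0.058). Creb1 turned from 0.50 to -0.19 with the mean of its probes, and Prkaa1 from 0.072 to -0.065 without adult basal replicate 2, its range with 1 array left out reaching 0.19. The cause of these changes was not tested. The spread between 3 arrays a population and, for Fbp2 and Zeb1, signals near background limit what the arrays can show.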
